A study of Bos taurus with 4 samples.

Results

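The genes described here encode the DNA repair machinery of the bovine blastocyst, the embryo stage at which an inner cell mass and a surrounding trophectoderm have formed. A list of 43 repair genes was matched by gene symbol to the array annotation, which held 40 of them. BRCA2, MSH3 and PARP2 were absent from that annotation and are left out. The 40 genes were carried by 55 of the 43794 embryo probes on the array, and 54 of these 55 were bright enough to be tested, beside 36325 probes in all. By role, 9 genes act in base excision and single-strand break repair, 2 in mismatch repair, 7 in nucleotide excision repair, 10 in homologous recombination, 4 in end joining, 4 are damage signalling kinases and 4 are factors shared by several routes.

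Both groups were RNA samples from blastocysts made by fertilising oocytes of slaughterhouse ovaries in vitro. They differed in the sire's age at semen collection, 10 months or 16 months, around puberty. Semen came from 4 bulls, each sampled at both ages. Sire breed, the number of embryos per sample and the bull behind each array are not given in the labels, so the p-values measure only the spread between these 4 arrays. Each array held 1 sample of either age, and the dyes were swapped between arrays: the RNA of the younger sires was labelled with Cy5 for replicates 1 and 2 and with Cy3 for replicates 3 and 4. RNA was amplified before it was labelled. The samples were whole embryos, in which fewer cells of a type and less RNA per cell cannot be told apart.

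Sperm carry damaged DNA but repair little of it, because their chromatin is tightly packed and transcription has stopped. The fertilised egg therefore mends the paternal genome with proteins and messages stored in the oocyte, and only later does the embryo transcribe its own repair genes. Base excision repair replaces single damaged bases, mismatch repair corrects errors of replication, nucleotide excision repair cuts out bulky lesions, and homologous recombination and end joining rejoin broken double strands. The comparison addressed whether messages of these routes differed in blastocysts between sire ages.

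None of the 40 repair genes differed between the ages by the test over all probes (limma with Benjamini-Hochberg adjustment). The adjusted test called 0% of all tested probes, and the lowest adjusted p over all of them was 0.957. None of the 40 had an unadjusted limma p under 0.05, against 3.96% of all tested probes. None had a ratio of the same sign on all 4 arrays, against 9.37% of probes. None had levels that did not overlap between the ages, against 1.04% of probes. Each gene is represented in these counts by its brightest tested probe. POLE3, a histone-fold subunit of DNA polymerase epsilon, had a second, dimmer probe that was higher at 10 months on every array. The fitted difference of that probe was 1.51-fold (limma, adjusted p = 0.957), while the brighter probe had a fitted log2 ratio of -0.10. Values of both probes are given at the end.

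The standard error of the log2 ratio of 10 over 16 months had a median of 0.13 over the 40 genes, and the median half-width of the 95% interval was 0.31. A 1.5-fold difference in either direction lay outside the interval for 36 of the 40 genes (90%, against 87.2% of all tested probes). Of the 33 genes above background at both ages on all 4 arrays, this held for 29. The other 7 lay near background on some arrays, where the background offset draws ratios towards 0, so that their intervals say less. The exceptions among the 40 were the polymerase POLB, the ubiquitin ligase subunit DDB1, the recombination protein XRCC2 and the kinase CHEK2. A 2-fold difference lay outside it for 39 genes, CHEK2 being the exception. The 40 fitted ratios ran from -0.32 to 0.44, with 13 above 0 and 27 below. Their median was -0.05, against -0.0018 over all tested probes, and 67.5% of them were negative, against 50.6% of probes. The median over the 40 genes was -0.10, 0.07, 0.0094 and -0.15 on replicates 1 to 4, so the shift did not keep its sign from array to array.

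**Figure D1:**
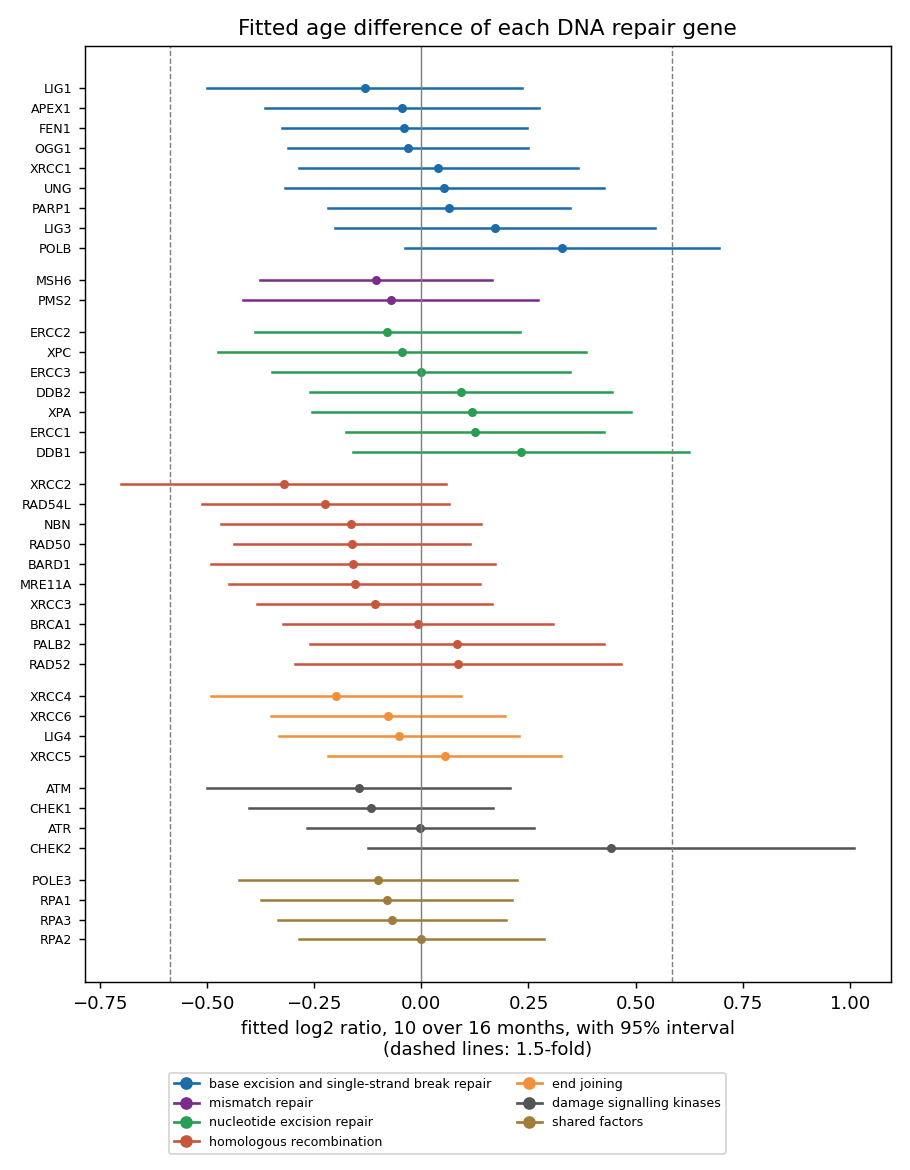
Fitted log2 ratio of 10 over 16 months for the 40 repair genes, each by its brightest tested probe, with its 95% interval, grouped by repair route; dashed lines mark a 1.5-fold difference. Every interval crosses 0, and 4 genes (POLB, DDB1, XRCC2 and CHEK2) have intervals that reach past a dashed line.

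The messages themselves were readily measured. At both ages, 33 of the 40 genes were above background on all 4 arrays. Dim genes were found mostly among nucleotide excision and recombination genes: BRCA1, the tumour suppressor that guides recombination, was above background on 1 array at either age, and its partner BARD1 and the lesion sensor DDB2 were so on 2 arrays at either age. ERCC2, a helicase of the transcription factor complex TFIIH, was not well above background at 10 months on any array. LIG3 and ERCC3 were above background on 3 arrays at either age, and XRCC4 on 4 arrays at 10 months and 3 at 16 months. One UNG probe was too dim to be tested. Probe brightness depends on the probe, so levels are compared here between ages for the same probe and not between genes.

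The tissue label was checked with marker genes. All 9 trophectoderm markers, all 3 markers of the inner cell mass and both annotated markers of primitive endoderm were above background on all arrays at both ages. Of the 8 sperm and testis markers, 0 were above background on all arrays at both ages, although each was above it on some array. Their mean log2 level was 6.90 to 7.18 at 10 months and 6.72 to 7.06 at 16 months. Of 10 oocyte markers 2 were above background throughout, with a mean level of 6.82 to 7.01 at 10 months and 6.92 to 7.19 at 16 months. ZAR1, an oocyte maternal-effect gene, was the 1 marker of these 10 that was never above background. BTG4, a regulator of maternal message decay, was the 1 oocyte marker with an unadjusted limma p under 0.05 (-0.82 ± 0.16), with ratios of -1.23, -1.92, 0.22 and -0.34. Cumulus cell markers stood at 7.08 to 7.60 and 7.25 to 7.70, with 2 of 8 above background throughout and 1, AMH, never so. Blood cell markers stood at 8.20 to 8.34 and 8.06 to 8.35, with 2 of 6 above background throughout. Among the 6, PTPRC stood at 0.49 ± 0.20 and CD74 at -0.29 ± 0.12, each with an unadjusted limma p under 0.05. Of all tested probes, 3.96% had such a p. The adjusted limma p of BTG4, PTPRC and CD74 was 0.957 each. Arrays had 33452 to 35972 probes above background in either channel, and replicate 3 had the widest ratios (SD 0.47 over tested probes, against 0.30 to 0.32 on the others). The part of these markers in the repair gene values was not tested.

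**Figure D2:**
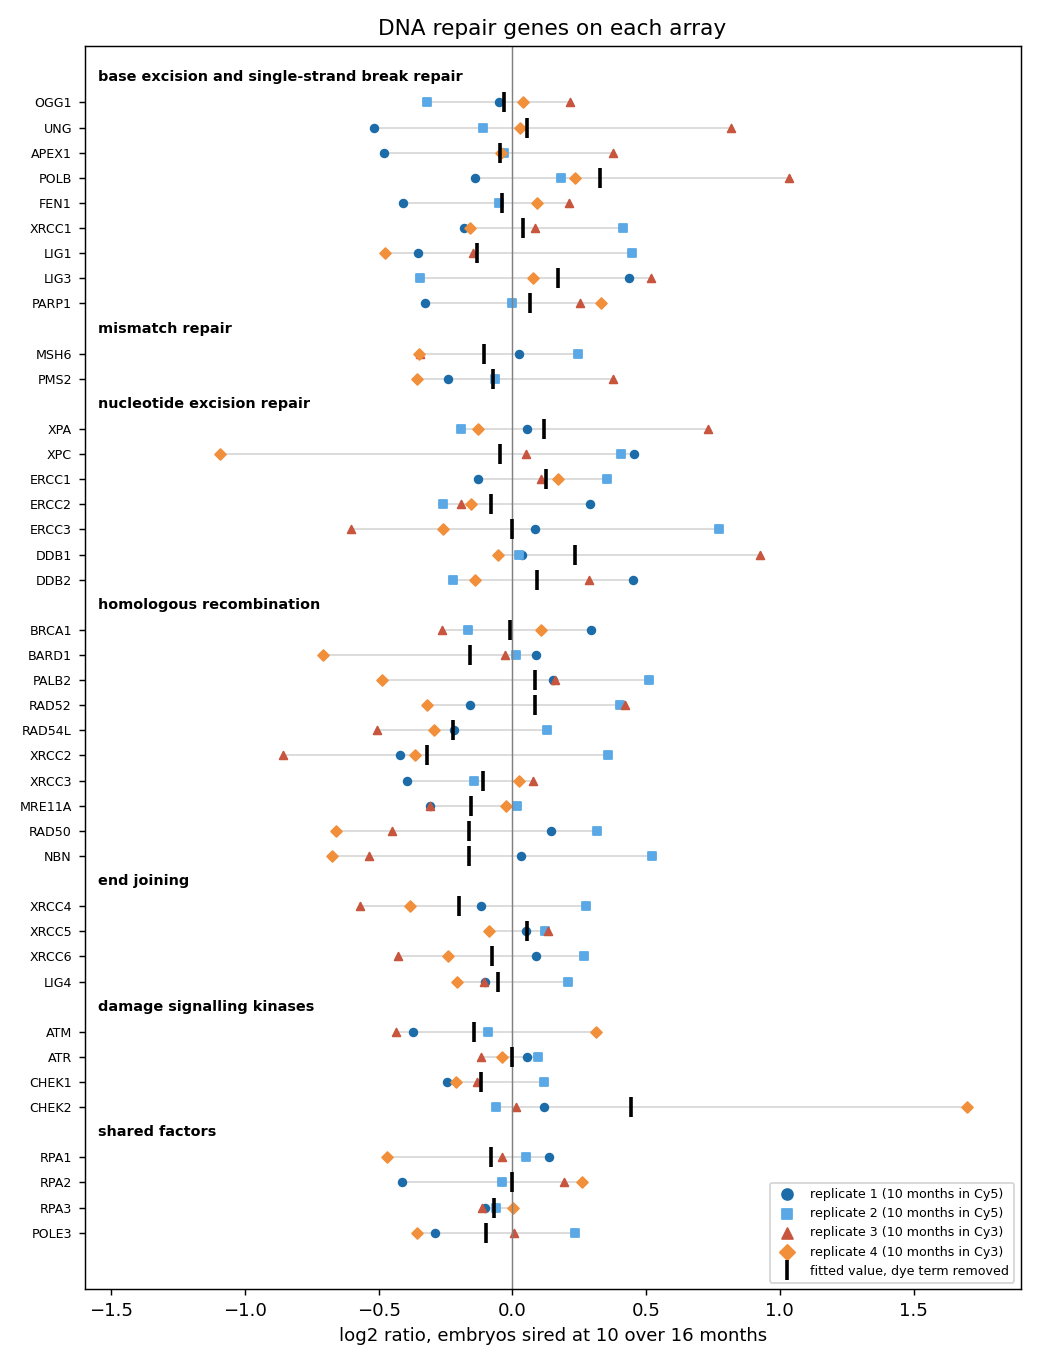
Log2 ratio of 10 over 16 months of each of the 40 repair genes on each of the 4 arrays, by repair route. Points of each gene fall on both sides of 0, black ticks mark the fitted value, and CHEK2 on replicate 4 (1.70) and XPC on replicate 4 (-1.09) are the values farthest from 0.

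Base excision and single-strand break repair was represented by 9 genes. Of these, 5 had ratios above 0 and 4 below, with a median of 0.04 and a range of -0.13 to 0.33. That median was below 0 with median centring (-0.037), with the authors' ratios (-0.012) and with the mean over a gene's probes (-0.039). The class medians on replicates 1 to 4 were -0.33, -0.03, 0.25 and 0.04 (SD 0.24, n = 4), a spread larger than the median itself.

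POLB, the polymerase that fills the gap left by an excised base, had the highest ratio of the class. Its log2 level at 10 months was 9.98, 9.98, 10.97 and 10.00 on replicates 1 to 4, and at 16 months it was 10.12, 9.79, 9.93 and 9.77. The 10-month value of replicate 3 was the high one, and the ages overlapped. The ratios of -0.14, 0.18, 1.04 and 0.23 gave a fitted difference of 0.33 ± 0.16 (SE, n = 4), or 1.26-fold (limma, unadjusted p = 0.0727, adjusted p = 0.957). Its other 3 probes had fitted ratios of 0.16 ± 0.19, 0.10 ± 0.11 and 0.03 ± 0.11, so all 4 lay on the same side of 0 and differed in size by up to 0.30. Without replicate 4 the POLB difference was 0.53 (limma, adjusted p = 0.0484), and in that fit 5.11% of all probes passed and 1 of the 40 repair genes. Replicate 3 is then the only array with 10 months in Cy3 and is matched exactly by the dye and age terms. The spread of that fit comes from replicates 1 and 2 and from other probes, and the p-value leaves out the noise of replicate 3, the array with the highest POLB ratio. Without replicate 3 the POLB difference was 0.13.

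LIG1, the ligase that seals nicks in replication and long-patch repair, was the lowest of the class. Log2 levels were 12.27, 12.89, 11.19 and 11.88 at 10 months and 12.62, 12.45, 11.34 and 12.35 at 16 months. Replicate 3 was the low array for both samples, and replicate 2 was the only array on which the 10-month sample was higher. The fitted difference was -0.13 ± 0.16.

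The glycosylases that start the route were close to 0. OGG1, which removes oxidised guanine, had a ratio of -0.03 ± 0.12 and its second probe -0.05 ± 0.14. UNG, which removes uracil, had ratios of -0.52, -0.11, 0.82 and 0.03 by its brighter probe. That probe gave a fitted 0.05 ± 0.16 and the dimmer one -0.17 ± 0.15, so the probes differed in sign. APEX1, which cuts the strand at the empty site, stood at -0.05 ± 0.14, and FEN1, which trims the displaced flap, at -0.04 ± 0.12. The scaffold XRCC1 stood at 0.04 ± 0.14. PARP1, which senses single-strand breaks, stood at 0.06 ± 0.12, and LIG3, the ligase that works with XRCC1, at 0.17 ± 0.16. In 7 of the 9 genes the dye coefficient favoured Cy3, with a class median of -0.19, against 0.014 over all tested probes. It favoured Cy5 in 22.2% of the class, against 52.9% of all tested probes.

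Mismatch repair was represented by MSH6, which recognises mispaired bases, and PMS2, which nicks the strand to be replaced. MSH6 had a log2 level of 11.34, 11.46, 11.71 and 11.20 at 10 months and 11.31, 11.21, 12.06 and 11.54 at 16 months. It was higher at 10 months on replicates 1 and 2 and lower on replicates 3 and 4, with a fitted ratio of -0.11 ± 0.12. PMS2 had a level of 8.37, 8.74, 8.26 and 7.93 at 10 months and 8.61, 8.81, 7.88 and 8.29 at 16 months. It was higher at 10 months on replicate 3 alone, with a fitted ratio of -0.07 ± 0.15. The class medians by array were -0.11, 0.09, 0.015 and -0.35 (SD 0.19).

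Nucleotide excision repair was represented by 7 genes, 4 above 0 and 3 below, with a median of 0.09 and a range of -0.08 to 0.23. The class medians by array were 0.08, 0.03, 0.10 and -0.14 (SD 0.11). Here the sign depended on how spots were summarised: with spot means in place of spot medians the class median was -0.024.

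DDB1, which with DDB2 finds ultraviolet lesions and is also a subunit of ubiquitin ligases, had the highest ratio of the class. Its log2 level was 12.40, 12.48, 12.44 and 11.94 at 10 months and 12.37, 12.46, 11.52 and 11.99 at 16 months. Both ages lay within 0.06 of each other on 3 arrays, and replicate 3 stood apart because its 16-month value was low. The fitted ratio was 0.23 ± 0.17, or 1.18-fold (limma, unadjusted p = 0.205, adjusted p = 0.957). Without replicate 3 it was -0.01, and without replicate 4 it was 0.48.

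XPC, the sensor of distorted DNA in the rest of the genome, varied most of the class. On the log2 scale its level was 9.86, 9.80, 8.94 and 8.82 at 10 months and 9.41, 9.39, 8.89 and 9.91 at 16 months. Its ratios were 0.45, 0.41 and 0.05 on replicates 1 to 3 and -1.09 on replicate 4. The fitted ratio was -0.05 ± 0.18, and the dye coefficient of 0.48 favoured Cy5. A second XPC probe had -0.06 ± 0.12. The fitted ratio was -0.33 without replicate 3 and 0.24 without replicate 4.

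ERCC2 had the lowest ratio of the class, -0.08 ± 0.13, with log2 levels of 6.31, 6.59, 6.14 and 6.71 at 10 months and 6.02, 6.85, 6.33 and 6.87 at 16 months. At 16 months 2 arrays had it above background and at 10 months none did, so the 10-month level is only a bound and no fold is given. ERCC3, the other TFIIH helicase, had ratios of 0.08, 0.77, -0.60 and -0.26, and a fitted ratio of -0.0016 ± 0.15. Its ratios on replicates 2 and 3 rest on Cy3 spots close to the negative controls' median. These raw spot medians were 215 against 197 (16 months, replicate 2) and 195 against 194 (10 months, replicate 3). The lesion-verifying XPA stood at 0.12 ± 0.16, the DDB1 partner DDB2 at 0.09 ± 0.15, and ERCC1, a subunit of the nuclease that cuts 5′ of the lesion, at 0.13 ± 0.13 with a second probe also at 0.13 ± 0.12.

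Double-strand break repair was represented by 14 genes, of which 11 (78.6%) had ratios below 0, against 50.6% of all tested probes. These 11 included BRCA1, BARD1 and XRCC4, which were not above background on every array at both ages. The median over the 14 genes was -0.13 (-0.053 with spot means in place of spot medians, and -0.071 with set-aside spots kept). The medians by array were -0.04, 0.24, -0.29 and -0.31 (SD 0.25). The number of these genes higher at 10 months was 7, 12, 4 and 2 on replicates 1 to 4, so replicate 2 ran against replicates 3 and 4. The 10-month sample carried Cy5 on the first of these and Cy3 on the others. The dye coefficient favoured Cy5 in 13 of the 14 genes (92.9%), against 52.9% of all tested probes. The part of the dye in the class median was not tested beyond the dye term of the fit.

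**Figure D3:**
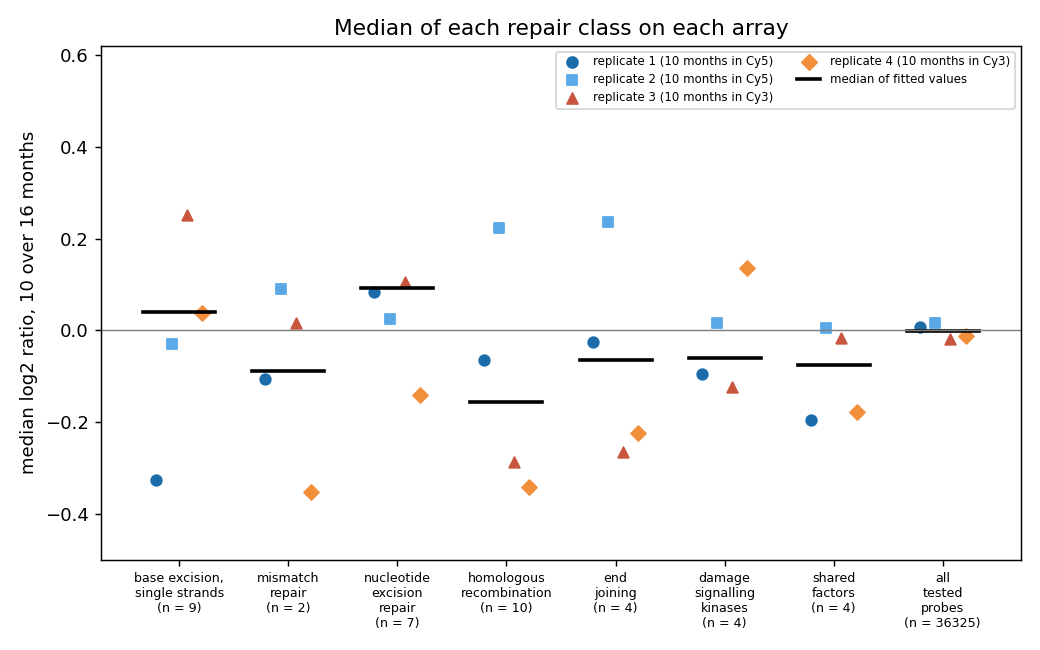
Median log2 ratio of 10 over 16 months over the genes of each repair route, on each array, with black bars for the median of the fitted values. Points of the double-strand break routes lie above 0 on replicate 2 and below 0 on replicates 3 and 4, and those of base excision repair span -0.33 to 0.25.

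Homologous recombination, which copies the intact sister strand, held 10 of these genes, 2 above 0 and 8 below, with a median of -0.16 and a range of -0.32 to 0.09. XRCC2, a protein of the strand exchange step, was the lowest of all 40 genes. Its log2 level was 10.04, 9.62, 8.85 and 9.82 at 10 months and 10.46, 9.26, 9.71 and 10.19 at 16 months. The 10-month sample was lower on replicates 1, 3 and 4 and higher on replicate 2, and the ages overlapped. The fitted ratio of -0.32 ± 0.16, or 0.80-fold, had an unadjusted p of 0.0859 (limma, adjusted p = 0.957). Its dimmer probe had ratios of 0.62, 0.28, -0.77 and -0.57, which followed the dye, and a fitted -0.11 ± 0.12. Leaving out replicate 1 gave -0.13 for the brighter probe, leaving out replicate 2 gave -0.52, and leaving out replicate 4 gave -0.45.

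RAD52, which anneals single strands, had the highest ratio of the class. Log2 levels of RAD52 were 8.96, 9.28, 9.09 and 8.77 at 10 months and 9.12, 8.87, 8.67 and 9.09 at 16 months. It was higher at 10 months on replicates 2 and 3 only, with a fitted ratio of 0.09 ± 0.16. PALB2, which bridges BRCA1 and BRCA2, stood at 0.08 ± 0.15. The motor protein RAD54L stood at -0.22 ± 0.12 (limma, adjusted p = 0.957), and the recombination protein XRCC3 at -0.11 ± 0.12.

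The 3 subunits of the complex that first binds and trims a broken end had nearly the same fitted ratio. MRE11A (now MRE11), the nuclease, stood at -0.16 ± 0.13, RAD50, which tethers the ends, at -0.16 ± 0.12, and NBN, which recruits ATM, at -0.16 ± 0.13. The arrays behind these values differed. RAD50 had log2 levels of 10.86, 10.98, 10.77 and 10.31 at 10 months and 10.72, 10.66, 11.21 and 10.97 at 16 months, higher at 10 months on replicates 1 and 2 and lower on replicates 3 and 4. NBN had the same order of signs, with ratios of 0.03, 0.52, -0.53 and -0.67. MRE11A had ratios of -0.31, 0.02, -0.31 and -0.02, with almost no dye coefficient (0.01, against 0.39 for RAD50 and 0.44 for NBN). BRCA1 stood at -0.0075 ± 0.14. BARD1 stood at -0.16 ± 0.14, with ratios of 0.09, 0.01 and -0.03 on replicates 1 to 3 and -0.71 on replicate 4. Its 10-month spot on replicate 4 was below the negative controls' median (192 against 225). Without replicate 4 the BARD1 ratio was 0.01.

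End joining, which rejoins broken ends without a template, held 4 genes, 1 above 0 and 3 below. XRCC4, the partner of ligase LIG4, was the lowest. Its log2 level was 7.22, 7.30, 7.44 and 7.14 at 10 months and 7.33, 7.02, 8.01 and 7.53 at 16 months. It was higher at 10 months on replicate 2 alone, with a fitted ratio of -0.20 ± 0.13. XRCC5, the larger subunit of the Ku end-binding dimer, was the highest, with levels of 7.61, 7.86, 7.61 and 7.77 at 10 months and 7.56, 7.74, 7.48 and 7.86 at 16 months. Its ratios stayed within -0.09 and 0.13, and the fitted ratio was 0.05 ± 0.12. The other Ku subunit, XRCC6, stood at -0.08 ± 0.12. LIG4 stood at -0.05 ± 0.12 and its second probe at -0.11 ± 0.14.

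The damage signalling kinases had 1 gene above 0 and 3 below, with a median of -0.06. CHEK2, the checkpoint kinase that ATM activates after strand breaks, had the highest ratio of all 40 genes, and 1 array made it. Its log2 level at 10 months was 7.54, 7.85, 7.57 and 9.50, and at 16 months 7.42, 7.91, 7.56 and 7.79. The 10-month sample of replicate 4 was 1.70 above its partner, while the ratios of the other arrays lay between -0.06 and 0.12. The fitted ratio of 0.44 ± 0.24, or 1.36-fold, had an unadjusted p of 0.109 (limma, adjusted p = 0.957). Without replicate 4 it was 0.02, and without replicate 3 it was 0.86, where replicate 4 is the only array of its dye orientation. Its other probes, both dim, did not share the rise on replicate 4, where their ratios were 0.10 and -0.06. Their fitted ratios were -0.14 ± 0.14 and 0.13 ± 0.12.

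ATM, the kinase that answers double-strand breaks, was the lowest of the class. The log2 level of ATM was 9.91, 9.82, 9.44 and 10.31 at 10 months and 10.28, 9.91, 9.87 and 10.00 at 16 months. It was lower at 10 months on replicates 1 to 3 and higher on replicate 4, with a fitted ratio of -0.15 ± 0.15. ATR, which answers exposed single strands at stalled forks, differed little on any array, with ratios of 0.05, 0.10, -0.12 and -0.04 and a fitted -0.0019 ± 0.11. Its effector kinase CHEK1 stood at -0.12 ± 0.12.

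**Figure D4:**
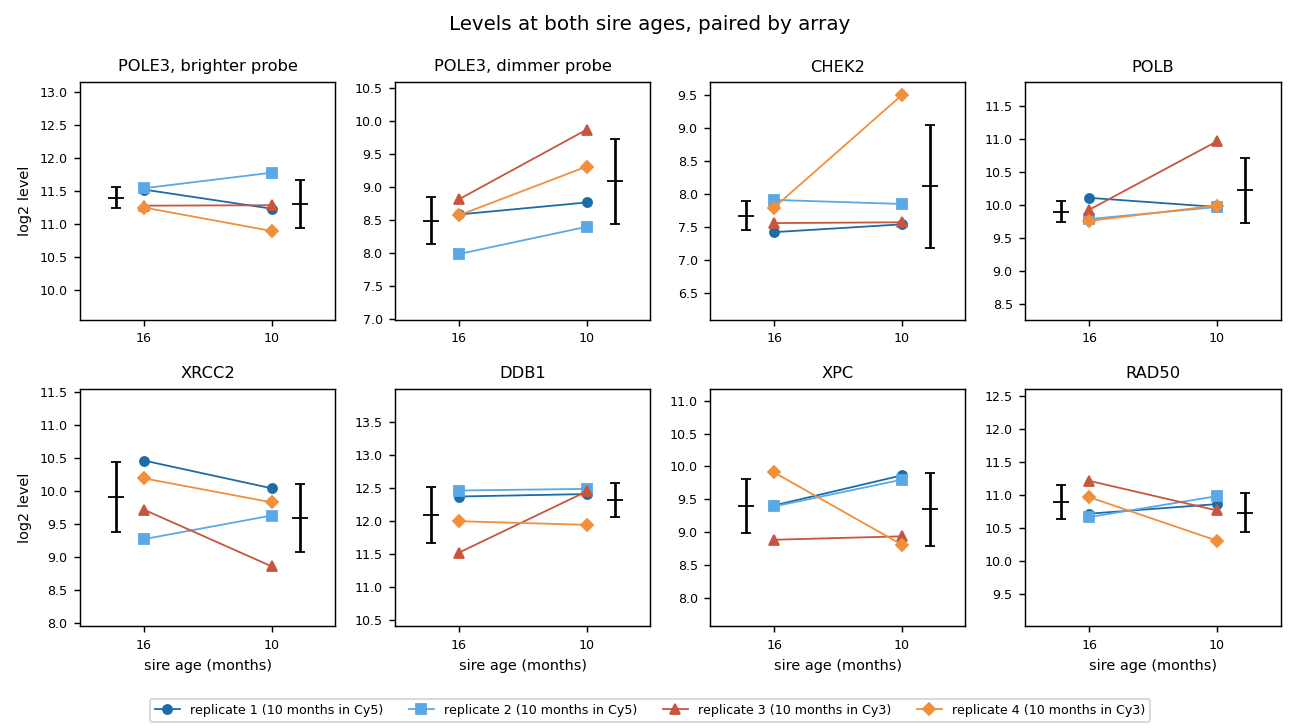
Normalised log2 level of 8 probes of 7 repair genes at 16 and 10 months, with lines joining the samples of 1 array and bars for the mean and SD over 4 arrays. The dimmer POLE3 probe is higher at 10 months on every array, while CHEK2 and DDB1 each differ on 1 array.

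The factors shared by several routes were 4 genes, all with fitted ratios at or below 0 and a median of -0.07. The medians by array were -0.20, 0.0046, -0.016 and -0.18 (SD 0.10). RPA1, RPA2 and RPA3 form the complex that coats single-stranded DNA in replication and in most repair routes. RPA2 had log2 levels of 12.51, 12.94, 12.90 and 13.02 at 10 months and 12.92, 12.98, 12.71 and 12.76 at 16 months. It was lower at 10 months on replicates 1 and 2 and higher on replicates 3 and 4, with a fitted ratio of -0.00015 ± 0.12 and -0.09 ± 0.12 by its second probe. RPA1 stood at -0.08 ± 0.13. RPA3 varied least of the 40 genes between arrays (ratios of -0.10, -0.06, -0.11 and 0.00, SD 0.052) and stood at -0.07 ± 0.11.

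The POLE3 probes gave different answers. The brighter probe had log2 levels of 11.24, 11.78, 11.29 and 10.90 at 10 months and 11.53, 11.55, 11.28 and 11.25 at 16 months, with no fixed order of the ages and a fitted ratio of -0.10 ± 0.14. The dimmer probe had levels of 8.77, 8.40, 9.87 and 9.31 at 10 months and 8.58, 7.98, 8.81 and 8.57 at 16 months. It was above background at both ages on all arrays, and the 10-month sample was the higher one on each array, although the ages overlapped across arrays. Its ratios of 0.18, 0.41, 1.05 and 0.74 gave a fitted 0.60 ± 0.12, or 1.51-fold (95% interval 0.31 to 0.88 on the log2 scale). The limma p was 0.00146 unadjusted, the eighth lowest of all tested probes, and 0.957 after adjustment. It was the single repair probe among 54 (1.85%) with an unadjusted p under 0.05, and the single one with the same sign on all arrays. The dimmer probe exceeded the brighter one in ratio by 0.47, 0.18, 1.05 and 1.09 on replicates 1 to 4. The mean of both fitted values was 0.25. Over the replicates left out in turn the dimmer probe stayed between 0.52 and 0.68, and turning the sign of replicate 3 gave 0.29. Without replicate 4 its adjusted limma p was 0.0195, in the fit that called 5.11% of all probes and that leaves out the noise of replicate 3, where its ratio was highest. Which transcript either probe reports was not tested, since probe sequences were not used here.

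Several probes of a gene disagreed in sign for 3 of the 11 repair genes that had more than 1 tested probe, namely UNG, CHEK2 and POLE3. The gap between the highest and lowest fitted ratio was 0.70 for POLE3, 0.58 for CHEK2, 0.30 for POLB, 0.22 for UNG and 0.21 for XRCC2. For the other 6 genes it was 0.09 or less.

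**Figure D5:**
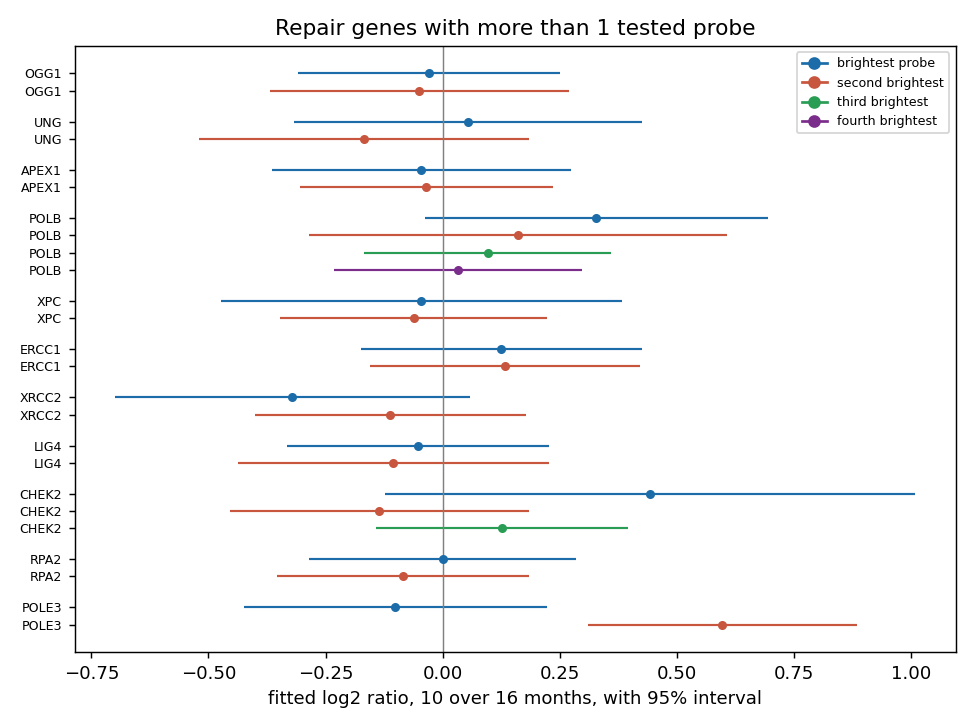
Fitted log2 ratio of 10 over 16 months, with its 95% interval, of every tested probe of the 11 repair genes that had more than 1. Probes of POLE3 and CHEK2 spread the most (0.70 and 0.58), and in POLE3 the interval of the dimmer probe does not reach 0.

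The sign of the ratio followed the dye in many of the repair genes. In 14 of the 40 (35%) replicates 1 and 2 had one sign and replicates 3 and 4 the other, against 23.6% of all tested probes. The size of the dye coefficient had a median of 0.18 over the 40 genes and 0.13 over all probes. Between arrays, the ratio of 10 over 16 months over all tested probes correlated at 0.32 and 0.12 within a dye orientation and at -0.30 to -0.14 across orientations, as a description over probes that share arrays and dyes. Each age held both orientations on 2 arrays, so a dye effect of constant size cancels in the fitted ratio.

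A wider set of 108 other repair genes gave 87 that were tested. None passed the adjusted test, and 4 (4.6%) had an unadjusted limma p under 0.05, against 3.96% of all tested probes, a share near that background. All 4 were lower at 10 months, and 1.92% of all tested probes passed in that direction, which was not set beforehand. Of the 87, 33 lay above 0 and 54 below (62.1%, against 50.6% of all tested probes), with a median of -0.05. PARG, which removes the poly(ADP-ribose) chains that PARP1 builds, had ratios of -0.0039, -0.40, -1.10 and -0.51 and a fitted -0.50 ± 0.15. FANCM, a DNA translocase of the Fanconi anaemia route that repairs crosslinks, had ratios of -0.25, -0.08, -0.42 and -0.48 and a fitted -0.31 ± 0.12. FANCA, of the core complex of that route, stood at -0.34 ± 0.13 and was higher at 10 months on replicate 2 (0.19). RAD17, which loads the checkpoint clamp upstream of ATR, stood at -0.28 ± 0.12. The adjusted limma p of each was 0.957. The count of 4 fell to 1 without replicate 1 or without replicate 2, and was 10 without replicate 4. The share of all tested probes at that threshold moved too, to 1.26%, 1.78% and 18.1% in these fits. By route, the 14 other homologous recombination genes had a median of 0.0029 (7 above 0 and 7 below), against -0.16 in the 10 described above, and the 13 other base excision genes had -0.08 (10 below 0), against 0.04. The 13 other nucleotide excision genes had 0.05 (11 above 0), the 4 mismatch genes -0.03 and the 7 end joining genes -0.08. The median was -0.10 over 10 Fanconi anaemia genes (8 below 0), -0.07 over 13 signalling genes (11 below 0), -0.05 over 10 translesion synthesis genes and 0.07 over 3 direct reversal genes.

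Single arrays weighed on the whole comparison. Without replicate 3 the adjusted test called 0.0165% of all probes (6), none of them representing a repair gene, and without replicate 4 it called 1858. With 1 array left out, the other array of its dye orientation stands alone and its noise enters no p-value. In such fits an unadjusted limma p under 0.05 was also common among all tested probes. Without replicate 4, POLB, XPA, DDB1, XRCC2 and ATM had one (5 of 40), against 18.1% of all tested probes. XPC, BARD1 and CHEK2 had one without replicate 3 (3 of 40, against 6.39%), and XRCC2 without replicate 2 (1 of 40, against 1.78%).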

How the data were processed

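The data are 4 arrays of 2 colours on 1 slide, each with blastocysts of both sire ages. Per the file headers, the scan output deposited by the authors gave the intensity of each spot and of its surroundings in the Cy5 and Cy3 channels, not normalised. The authors' deposited value table contained log2 ratios (limma is named in the submitters' processing notes) in the direction Cy5 over Cy3 (r = 0.952 to 0.979 with the ratios computed here; column medians -0.02 to -0.0057; whether these were set on purpose is unknown). It served as an alternative. No source used here names the scanner.

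Spot medians were corrected with normexp (offset 50, which shrinks ratios of dim probes) without set-aside spots, normalised by loess within each array, and fitted with limma 3.58.1 in R 4.3.3 (lmFit, eBayes) with dye and age coefficients, adjusted by Benjamini-Hochberg over 36325 probes. The scripts were tested on simulated data. A probe was tested if its spot median exceeded the negative controls' median by 2 median absolute deviations in either channel on at least 2 arrays. Dim probes (7294) and probes with a set-aside spot (175) were left out. Levels are log2 intensities per channel after loess and Aquantile. Ratios are 10 over 16 months. Precision is limited by the number of arrays.

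A gene is represented by its brightest tested probe. Values of all arrays are given for genes whose ratio keeps 1 sign over the arrays, an unadjusted p under 0.05, the highest or lowest ratio of a route, 1 array more than 1 log2 unit from the others, or probes over 0.4 apart; for UNG, OGG1, ERCC3, the end-trimming complex, BARD1, ATR and RPA3 array values or second probes were added after their values were seen. Other repair genes are named at an unadjusted p under 0.05. The members, gene lists and settings were chosen with earlier results of these data known. Symbols follow the platform annotation, and 39 of the 40 match current RefSeq symbols. Alternatives covered background correction, normalisation, filters, spot summary, variance trend, dye term, the authors' ratios, the mean over probes, the sign of replicate 3 and each replicate left out.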

Additional observations from a re-analysis of the deposited data

Results flagged for a closer look

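In 3 of the 40 repair genes 1 array stood apart from the other 3 by Dixon's test for 4 values. DDB1 had a log2 ratio of 10 over 16 months of 0.93 on replicate 3, against -0.06 to 0.04 on the other arrays. BARD1 had -0.71 on replicate 4, against -0.03 to 0.09. The raw 10-month spot median of BARD1 on replicate 4 was 192, below the negative controls' median of 225, so that ratio lay at the floor. CHEK2 had 1.70 on replicate 4, against -0.06 to 0.12, and the ratios of its other tested probes on that array were 0.10 and -0.06. Chance gives such a value in about 5% of groups of 4, and 5.41% of all tested probes had one.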

How the results depend on the processing

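Over 15 alternative settings the adjusted count of probes was 0 except with a replicate left out, where it ran from 0 to 1858. Among the 40 repair genes, 0 passed the adjusted test in any setting but 1, POLB without replicate 4, where the lone array of its dye orientation adds no spread. The count of repair genes at an unadjusted limma p under 0.05 was 0 in the report, against 3.96% of all tested probes. It was 1 with spot means (RAD54L, against 4.01%) and 3 with the sign of replicate 3 turned (XPC, BARD1 and CHEK2, against 3.03%). With a replicate left out it was 0 to 5, against 1.26% to 18.1% of all tested probes. The count of 4 among the 87 other repair genes was 2 of 72 under a stricter filter on dim probes (against 3.45%). It was 7 of 87 with spot means (against 4.01%). It was 2 without a dye term (against 2.2%), 1 with replicate 3 turned, and 1 to 10 with a replicate left out. The nucleotide excision median was -0.024 with spot means and -0.079 with replicate 3 turned, and the kinase median 0.088 with replicate 3 turned. The base excision median was -0.037 with median centring, -0.012 with the authors' ratios, -0.039 with the mean over probes and -0.066 with replicate 3 turned, and the shared-factor median was 0.0055 with spot means. With a replicate left out, the base excision, mismatch, nucleotide excision and kinase medians also changed sign. The cause of these changes was not tested. The median of the 14 double-strand break genes stayed below 0 in every setting, at -0.19 with median centring to -0.053 with spot means. The fitted sign of 10 repair genes held throughout and that of 30 changed at least once, 16 of them with replicate 3 turned and 13 with replicate 3 left out. Both ages share each array, so each ratio is already paired and no further block was fitted. The slide as a block could not be fitted because there was 1 slide. Signal over background limits what is said of the 7 genes not above background throughout.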
